A study of Mus musculus with 283 samples.

Results

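The Hox genes were followed across a panel of mouse tumour lines, most of them measured both in culture and as tumours grown in syngeneic mice, beside the spleens and lymph nodes of those mice and of tumour-free mice. The members were chosen by name: every probe set annotated to a single symbol made of Hox, a cluster letter from a to d and a number. This gave 32 genes of the 15224 measured, each with 1 probe set. The A cluster on chromosome 6 contributed 8 members of its 11 genes, the B cluster on chromosome 11 contributed 10 of 10, the C cluster on chromosome 15 contributed 8 of 9 and the D cluster on chromosome 2 contributed 6 of 9 (RefSeq, GRCm38.p6). Hoxa3 and Hoxd4 were listed on probe sets naming several genes and are left out. The other genes of the clusters were not analysed here. The annotated spans of Hoxb3 and Hoxb4 overlap by 3372 bases and those of Hoxd11 and Hoxd10 by 2744 bases, so signal within each of these pairs may be shared.

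Hox genes encode homeodomain transcription factors that give cells of the embryo their position along the head-to-tail axis. They lie in clusters whose order on the chromosome follows the order of their expression domains: low numbers act near the head, high numbers near the tail and at the tips of the limbs. Genes with the same number in different clusters are paralogues. Cells taken from adult organs often keep part of the Hox pattern of the region they came from. PBX and MEIS proteins bind DNA together with Hox proteins, Polycomb complexes keep the clusters silent and Trithorax or MLL complexes keep them active.

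The study comprised 16 cultures, 1 for each line or stock, and 77 tumours of 15 models. It also comprised 92 lymph nodes and 98 spleens, of which 20 nodes and 20 spleens came from mice without tumours. The lines were 4T1 (mammary), CT26 (colon) and Renca (kidney) in BALB/c females. P815 (mast cell) grew in DBA/2J females, and TRAMPC1 and TRAMPC2 (prostate) in C57BL/6J males. C57BL/6J females carried B16F0 from the ATCC and ECACC repositories, B16F10 from ATCC and NCI (all melanoma), LL2 and TC1 (lung), MC38 (colon), EL4 (thymoma) and PAN02 (pancreas). All tumours were placed under the skin of the back except those of PAN02, which grew in the pancreas. Each model had 5 tumours except MC38 with 8 and PAN02 with 4. TC1 has no culture here, and the liver line Hepa1-6 and the ovary line ID8 were measured in culture alone. A family below is a line with its stocks or sister lines, so that the 4 B16 models form 1 family and the 2 TRAMPC models, called TRAMP-C, form another, giving 11 families. Host strain, host sex and family cannot be told apart where a strain or sex carried only particular lines, and a tumour holds host cells as well as the line.

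Values were log2 intensities from an exon array, with array medians between 5.19 and 5.66. A difference of 1 is a doubling of signal, and levels are set only against other samples of the same gene. The mean of 3 melanocyte genes was 10.81 to 11.3 in B16 tumours and at most 6.49 in any other. That of 4 T cell genes was 8.59 to 9.07 in EL4 tumours, and that of 4 mast cell genes was 8.76 to 9.25 in P815 tumours. The mean of 4 epithelial genes was high in 4T1, Renca and PAN02 tumours, at 6.46 or more. It lay at 4.25 to 5.37 in CT26, 4.15 to 5.14 in MC38, 4.48 to 4.96 in TC1 and 5.49 to 6.42 in TRAMP-C tumours, although these lines are labelled by epithelial organs, and B16 tumours, of another cell type, spanned 3.75 to 5.38. Keratinocyte or pancreatic acinar genes averaged over 7 in 9 tumours, which were 1 of CT26, 1 of TRAMPC1, 2 of TRAMPC2, 3 of P815 and 2 of PAN02. The mean of 4 skeletal muscle genes also exceeded 7 in some tumours of every family except LL2 and Renca. It reached 9.89 in PAN02 tumour 6 and 8.69 in TRAMPC2 tumour 34, and at most 6.33 in LL2 and 5.97 in Renca tumours. No alternative fit left out tumours by their muscle genes.

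Of the 190 spleen and node arrays, 12 went against their labels, because over all genes they correlated better, by more than 0.005, with the mean of another kind of sample than with that of their own. Of these, 6 were nodes of tumour-bearing mice that were most like the tumours of their own model: 1 of 4T1, 2 of CT26 and 3 of Renca. For Renca node 22 the correlation with Renca tumours was 0.984 and with nodes 0.901. The mean of 3 B cell genes was 4.21 to 4.57 in these 6 nodes, against 6.42 to 9.02 in the nodes that matched their label. The other 6 came from tumour-free mice: 2 C57BL/6J female nodes most like spleens, 2 C57BL/6J female spleens and 1 BALB/c spleen most like nodes, and 1 DBA/2J node most like PAN02 tumours. A further 6 arrays were nearer another kind by less than 0.005 and are counted below as matching their label. Results that rest on spleens or nodes are given with and without the 12 arrays.

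The promoters of 5 members are shown because the results below turn on these genes and their start regions were held in the RefSeq table: Hoxd10, Hoxb8 and Hoxb4 were called in Renca tumours, Hoxa11 in Renca, EL4 and TRAMP-C tumours, and Hoxa5 in 4T1, TC1 and P815 tumours. Each runs 5′ to 3′ on the gene's strand, with every CG dinucleotide in capitals (RefSeq, GRCm38.p6). It goes from 250 bases before an annotated start to 50 after it. For Hoxd10 and Hoxb8 that start lies inside the gene's annotated span, which begins at 74684273 and 96279401. Their windows are therefore not at the first base of the span. The regions are chr2:74691641-74691940 on the plus strand for Hoxd10, chr6:52245761-52246060 on the minus strand for Hoxa11, chr11:96281655-96281954 on the plus strand for Hoxb8, chr11:96318017-96318316 on the plus strand for Hoxb4 and chr6:52204538-52204837 on the minus strand for Hoxa5.
Hoxd10: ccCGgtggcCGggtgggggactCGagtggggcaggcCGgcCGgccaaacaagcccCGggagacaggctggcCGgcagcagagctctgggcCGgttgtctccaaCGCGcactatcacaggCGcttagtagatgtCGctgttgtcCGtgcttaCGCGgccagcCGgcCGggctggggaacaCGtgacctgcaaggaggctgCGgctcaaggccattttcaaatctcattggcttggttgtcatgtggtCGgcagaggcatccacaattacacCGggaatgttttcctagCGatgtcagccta
Hoxa11: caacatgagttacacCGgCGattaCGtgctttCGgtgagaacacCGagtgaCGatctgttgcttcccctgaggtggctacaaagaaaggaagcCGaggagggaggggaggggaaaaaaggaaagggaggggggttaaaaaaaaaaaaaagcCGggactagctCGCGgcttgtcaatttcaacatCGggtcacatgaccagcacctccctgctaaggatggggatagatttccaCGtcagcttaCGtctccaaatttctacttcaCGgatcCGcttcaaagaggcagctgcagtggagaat
Hoxb8: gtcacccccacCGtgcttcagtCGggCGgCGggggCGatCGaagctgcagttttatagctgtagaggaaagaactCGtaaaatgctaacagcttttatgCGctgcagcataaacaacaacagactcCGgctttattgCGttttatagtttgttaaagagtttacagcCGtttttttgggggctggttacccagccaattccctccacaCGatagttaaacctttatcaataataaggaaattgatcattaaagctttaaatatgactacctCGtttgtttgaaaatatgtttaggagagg
Hoxb4: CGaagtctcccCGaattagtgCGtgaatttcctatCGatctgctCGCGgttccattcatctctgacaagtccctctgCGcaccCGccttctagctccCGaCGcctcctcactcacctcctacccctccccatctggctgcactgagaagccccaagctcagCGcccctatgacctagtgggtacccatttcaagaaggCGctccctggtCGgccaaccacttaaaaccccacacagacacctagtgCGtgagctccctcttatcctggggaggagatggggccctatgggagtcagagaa
Hoxa5: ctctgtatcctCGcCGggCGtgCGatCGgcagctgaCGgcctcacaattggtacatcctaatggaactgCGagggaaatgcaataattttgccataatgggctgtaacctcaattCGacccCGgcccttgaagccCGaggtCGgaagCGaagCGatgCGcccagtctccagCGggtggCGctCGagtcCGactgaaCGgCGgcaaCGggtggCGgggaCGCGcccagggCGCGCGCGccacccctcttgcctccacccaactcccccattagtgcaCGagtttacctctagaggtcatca
These windows hold 22, 15, 13, 14 and 29 CG dinucleotides in the order printed. Over the 19 windows matched to 17 members the median was 15, against 7 over all 32851 windows of the table. The interquartile ranges, 9.5 to 23.5 and 3 to 20, overlap. TGATNNAT, the letters of a combined PBX and Hox site, was found on either strand in 4 of the 19 Hox windows, those of Hoxa2, Hoxb1, Hoxb8 and Hoxd11, and in 8.85% of all windows. CCAAT occurred in 11 of 19 and 37.4% of all, and TATAAA in 3 of 19 and 13.6%. These matches are letters only, and they can overlap each other.

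The first question was which Hox genes differ between tumours of different lines. Of the 32 members, 31 passed the filter on low values. Of these, 19 differed among the 15 models by limma's F test (Benjamini-Hochberg adjusted p under 0.05 and a range of model means of at least 1) beside 53.1% of all 13633 genes tested. The Hox share, 19 of 31, is near that background. The median range of model means was 1.41 over the Hox genes and 1.07 over all genes. The widest ranges belonged to Hoxc10 at 3.01, Hoxa5 at 2.85, Hoxc6 at 2.75, Hoxb4 at 2.66 and Hoxb2 at 2.47. The narrowest was that of Hoxa4, an anterior gene of the A cluster, at 0.41 (adjusted p = 0.69). By position, 4 of 9 tested genes with numbers 1 to 4 differed, 8 of 9 with numbers 5 to 8, and 7 of 13 with numbers 9 to 13.

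**Figure D1:**
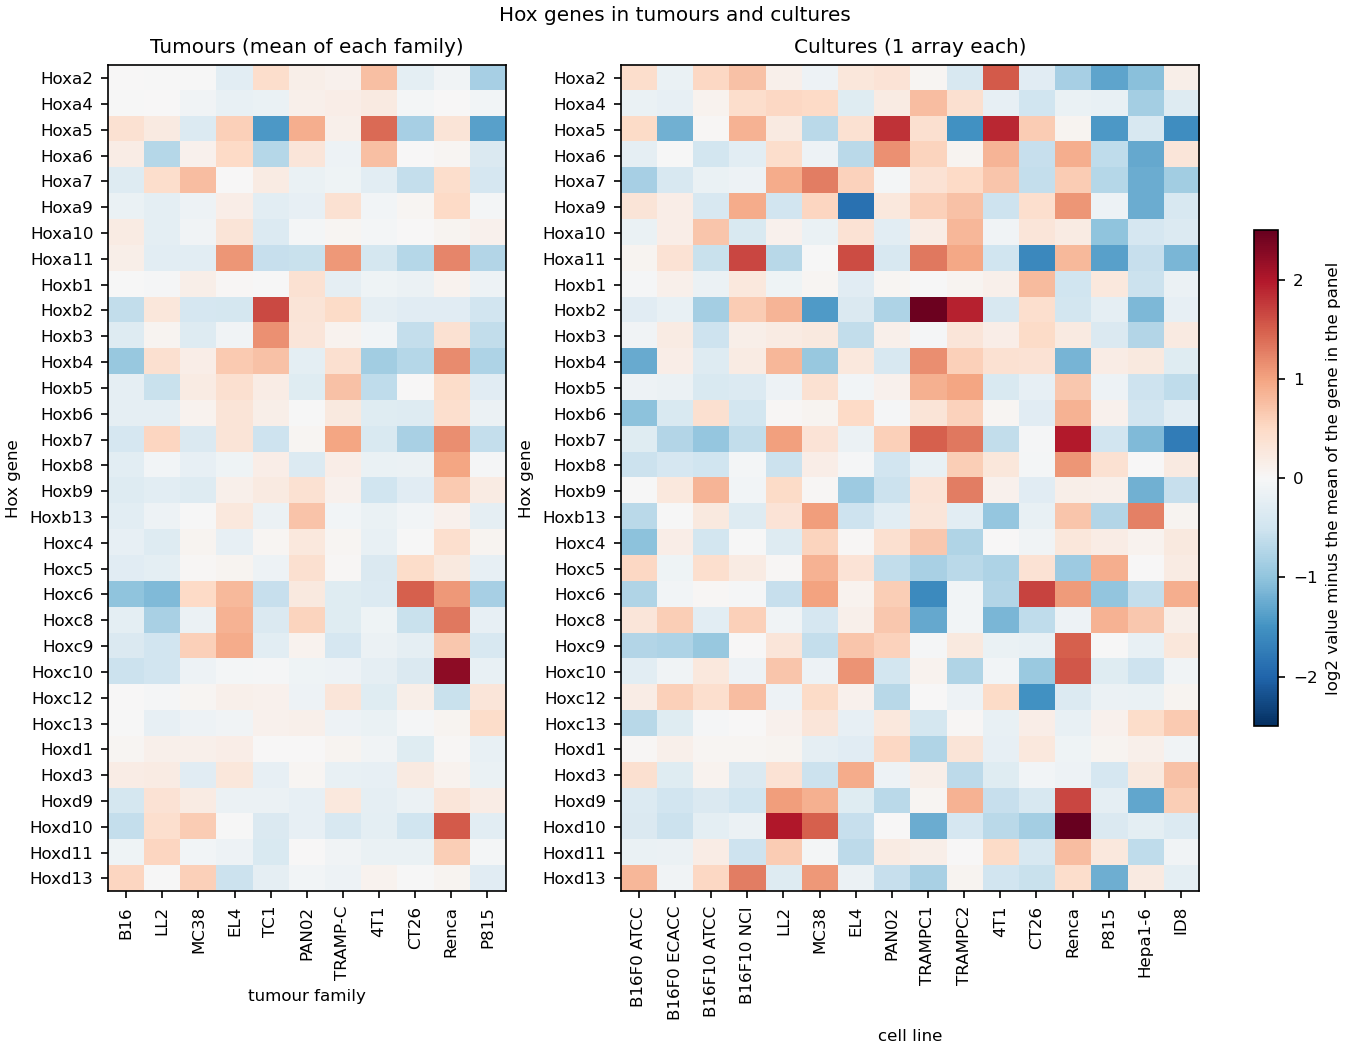
Levels of the 32 Hox genes (rows, ordered by cluster and number) as the mean of each of 11 tumour families (left) and in each of 16 cultures (right), centred per gene within each panel (log2 difference, colour scale). Renca tumours stand high at Hoxc10, Hoxd10 and Hoxa11, and TC1 tumours at Hoxb2 and Hoxb3.

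Each family was then compared with the average of all other families in the same limma fit, with a call at an adjusted p under 0.05 over all genes and a log2 difference of at least 1. Over the 11 families there were 16 calls higher and 5 lower among 341 gene and family pairs, beside 2.72% higher and 2.02% lower over all genes and families. Genes with numbers 1 to 4 gave 3 calls higher and 1 lower, numbers 5 to 8 gave 7 and 4, and numbers 9 to 13 gave 6 and 0. In bulk tissue, fewer cells of a type and less RNA per cell cannot be told apart, and this holds for every difference below.

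Renca, the kidney carcinoma line, had 8 of the 16 higher calls. The called genes were Hoxc10, Hoxd10, Hoxc8, Hoxa11, Hoxb4, Hoxb7, Hoxc6 and Hoxb8, 8 of the 31 Hox genes tested, beside 2.89% of all genes called higher in Renca tumours. No Hox gene was called lower, against 1.49% of all genes. The median difference of the Hox genes was 0.457, and that of all genes was 0.017. The calls spread over all 4 clusters, with 1 gene numbered 1 to 4, 4 genes numbered 5 to 8 and 3 genes numbered 9 to 13.

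Hoxc10, a posterior gene of the trunk and hindlimb domain, read 7.00, 7.16, 4.92, 6.50 and 7.03 in the 5 Renca tumours. In the other 72 tumours it read 2.97 at the lowest, 4.07 at the median and 4.76 at the highest. The groups did not overlap, although Renca tumour 22 lay only just above the highest of the others. The difference was 2.46 ± 0.19 (SE, adjusted p = 6.57e-18). Hoxd10, which acts in hindlimb and lumbar patterning, read 7.55, 7.59, 7.45, 8.00 and 7.62 in Renca tumours and 4.49 to 7.04 in the others, with a median of 5.85. Again the groups did not overlap, and the 5 Renca values lay close together (1.69 ± 0.17, adjusted p = 3.68e-13).

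Hoxa11, which is needed with Hoxd11 for the growth of the kidney and the forearm, read 6.77, 6.82, 6.41, 6.09 and 6.16 in Renca tumours. Its difference was 1.35 ± 0.18 (adjusted p = 7.56e-09), but 14 of the 72 other tumours lay above the lowest Renca value. Hoxc8, a gene of the thoracic domain, was the most scattered of the calls, at 5.52, 4.50, 4.66, 5.46 and 6.92. Its difference was 1.45 ± 0.31 (adjusted p = 1.92e-04), and 16 other tumours exceeded the lowest Renca value. Hoxb8, its B cluster paralogue, read 5.39 to 6.17 with a median of 5.84 in Renca tumours and at most 5.56 elsewhere, with 3 other tumours above the lowest Renca one (1.08 ± 0.16, adjusted p = 1.06e-07). The remaining calls were Hoxb4 at 1.30, Hoxb7 at 1.28 and Hoxc6 at 1.20, each overlapping with other families. For Hoxc6 the highest tumour of all was a CT26 tumour at 7.00, above every Renca tumour.

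**Figure D2:**
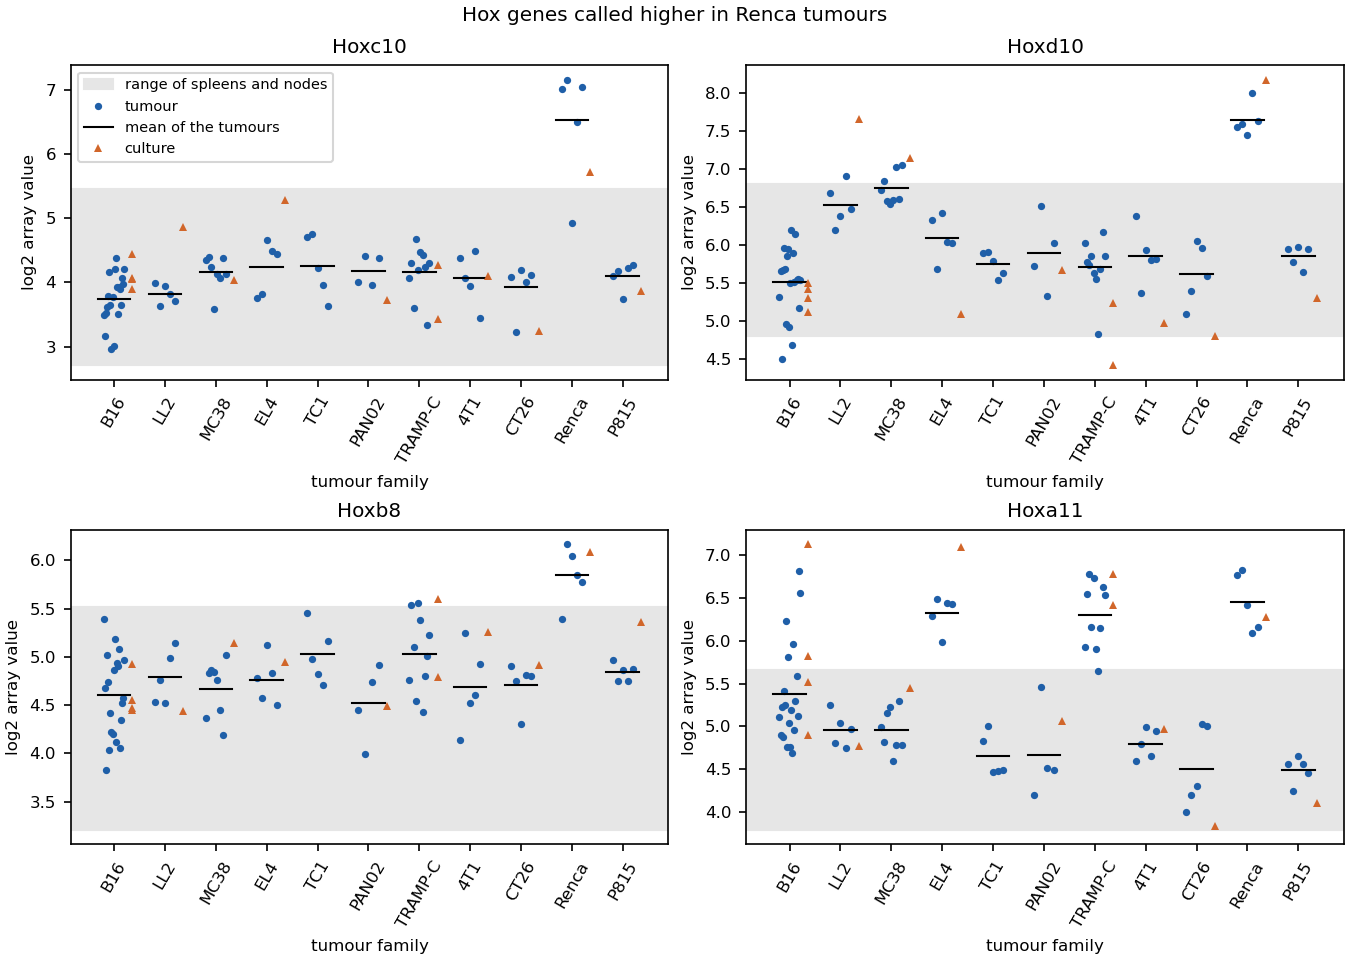
Hoxc10, Hoxd10, Hoxb8 and Hoxa11 in each tumour by family (points, log2 intensity), with the family mean (black line), the cultures (orange triangles) and the range of spleens and nodes that match their label (grey band). All 5 Renca tumours lie above every other tumour for Hoxc10 and Hoxd10. For Hoxa11 they share their range with EL4 and TRAMP-C tumours and with some B16 tumours, up to 6.82 in B16F0 tumour 4 from ECACC.

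The same genes were found in the Renca nodes that went against their label. In nodes 21 and 22 all 8 called genes lay above every node that matched its label, and in node 24 this held for 7, the exception being Hoxc8. These nodes were picked because they were most like Renca tumours over all genes. The same count over all genes called higher in Renca tumours was not taken, so this is not a result particular to Hox genes. Hoxd10 read 7.97, 7.70 and 7.71 in nodes 21, 22 and 24, against 6.09 in node 23, which matched its label. The 83 nodes that matched their label reached at most 6.80 for this gene, so the 3 Renca nodes lay in the range of the Renca tumours. Hoxc10 read 5.81, 5.92 and 5.96 in the same nodes, against 4.71 in node 23 and at most 5.45 in the 83 nodes. The epithelial gene mean was 7.35, 7.34 and 7.53 in the 3 nodes, against a median of 4.94 in nodes that matched their label. The one 4T1 node that went against its label lay above those nodes for Hoxa5, and the 2 such CT26 nodes did so for Hoxc6, the genes called higher in 4T1 and CT26 tumours. The 4T1 and CT26 nodes too were picked by their likeness to those tumours over all genes.

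TC1 tumours, from a lung epithelial line transformed with viral oncogenes, were set apart by a pair of anterior genes of the B cluster. Hoxb2, a hindbrain and neural crest gene, read 6.03, 5.98, 6.07, 6.14 and 5.59 in the 5 TC1 tumours, and 4.06 at the median of the others. Of the 72 others, 1 TRAMPC1 tumour, at 5.62, lay above the lowest TC1 tumour (difference 1.82 ± 0.25, adjusted p = 2.05e-08). Hoxb3, the next number of the cluster, which acts in the hindbrain and pharynx, read 7.38, 7.26, 6.81, 6.77 and 7.13, and 5.78 at the median of the others. No other tumour reached the TC1 range, the highest being at 6.69 (difference 1.25 ± 0.12, adjusted p = 2.37e-13). These were 2 of 31 Hox genes, beside 3.23% of all genes called higher in TC1 tumours.

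Hoxa5, which is needed for lung and tracheal development, was the 1 Hox gene called lower in TC1 tumours, beside 1.24% of all genes. It read 5.38, 5.15, 5.60, 4.42 and 5.54 in TC1 tumours, and 6.94 at the median of the others. Of those others, 5 lay below the highest TC1 tumour (difference -1.57 ± 0.23, adjusted p = 8.02e-08). The fibroblast and matrix gene mean was 7.79 to 8.23 in TC1 tumours, at the upper end of all families but within the 7.33 to 8.40 of TRAMP-C tumours. Its part in these differences was not tested.

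Hoxa5 was also the 1 member called in 4T1 tumours, in the opposite direction (1.72% of all genes called higher). It read 7.85, 8.44, 8.34, 7.69 and 8.01, above every other tumour except 1 of PAN02 at 8.17 (difference 1.56 ± 0.23, adjusted p = 1.56e-07). The 4T1 culture, at 8.17, had the highest Hoxa5 of the 16 cultures, and the PAN02 culture, at 8.07, came next. PAN02 tumours averaged 1.00 above the other families for this gene, which fell just short of the fold limit and passed it without 1 of several single tumours. No Hox gene was called lower in 4T1 tumours, against 1.36% of all genes. Without 4T1 tumour 34 or 35, Hoxb4 was called lower there too (difference -1.04 and -1.23).

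CT26 tumours were called higher for Hoxc6, a gene of the thoracic domain (1 Hox gene, 2% of all genes), and for no gene lower (1.18%). Hoxc6 read 6.58, 7.00, 6.71, 6.15 and 6.61 in these tumours, with 5 of 72 others above the lowest (difference 1.65 ± 0.22, adjusted p = 1.36e-08). The CT26 culture, at 6.54, had the highest Hoxc6 of the cultures. Without CT26 tumour 25, Hoxb7 was called lower as well (-1.03), and without tumour 26 or 28 Hoxa5 was (-1.06 and -1.10). B16 tumours lay at the other end of the same gene. They ranged from 3.29 to 5.06 with a median of 3.97 over 20 tumours, and 26 of the 57 other tumours lay below the highest B16 tumour (difference -1.10 ± 0.13, adjusted p = 6.57e-12). B16 tumours were also called lower for Hoxb4, which acts in the neck region and in blood stem cells, at 3.58 to 5.92 with a median of 4.38 (difference -1.05 ± 0.13). That call was lost with array medians subtracted (-0.96), after quantile normalisation (-0.98) and without B16F10 tumour 9 from ATCC (-0.99). These were 2 genes of 31, beside 4.38% of all genes called lower, and no Hox gene was called higher (3.04%).

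LL2 tumours were called lower for Hoxc6 as well, at 4.52, 5.27, 3.35, 3.67 and 3.20 (difference -1.22 ± 0.22, adjusted p = 1.56e-05). The 2 highest of these lay inside the middle of the other families, whose median was 4.83. This was 1 Hox gene beside 1.31% of all genes lower, and no Hox gene was called higher (1.99%).

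EL4 tumours, from a T cell lymphoma, were called higher for Hoxa11 and Hoxc9 (2 genes, 2.82% of all genes) and lower for none (4.15%). Hoxa11 read 6.29, 6.48, 5.98, 6.44 and 6.43, well above the median of the others of 5.01, though 15 of those exceeded the lowest EL4 tumour (difference 1.21 ± 0.18, adjusted p = 8.58e-08). Hoxc9, a gene of the lower thoracic domain, read 5.49, 5.18, 5.48, 5.34 and 7.29. The call rested on the last of these, EL4 tumour 18: without it the difference was 0.64, under the fold limit. The epithelial gene mean of that tumour was 6.92, against 4.61 to 5.44 in the other EL4 tumours, and its part in the value was not tested. Without EL4 tumour 15, Hoxc8 was called higher as well, at 1.07.

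TRAMP-C tumours were called higher for Hoxa11 and Hoxb7 (2 genes, 3.07% of all genes) and lower for none (0.631%). Hoxa11 ranged from 5.65 to 6.78 with a median of 6.35 over 10 tumours (difference 1.18 ± 0.13, adjusted p = 2.07e-11). Hoxb7, which acts in the trunk and in the ureteric bud of the kidney, ranged from 5.62 to 6.35 with a median of 5.93 (difference 1.09 ± 0.17, adjusted p = 1.82e-07). The TRAMPC1 and TRAMPC2 tumours overlapped for both genes, and 15 and 7 of 67 other tumours lay above the lowest TRAMP-C value.

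P815 tumours were called lower for Hoxa5 (1 gene, 2.38% of all genes lower) and higher for no Hox gene (4.45%). Hoxa5 read 4.97, 5.98, 5.61, 3.86 and 6.04, and 9 other tumours lay below the highest of these (difference -1.49 ± 0.23, adjusted p = 1.82e-07). The 3 higher values came from the 3 P815 tumours whose keratinocyte gene mean was over 7. Without all tumours of any family with skin or acinar markers the difference was -2.33. That fit kept only the P815 tumours at 4.97 and 3.86, and the part of skin in these values was not tested. Without tumour 28 alone, Hoxc6 (-1.02) and Hoxa2 (-1.0) were called lower as well. The P815 culture read 4.83. In MC38 tumours no Hox gene was called higher (2.47%) or lower (1.66%), and in PAN02 tumours none was higher (2.27%) or lower (2.48%). The nearest in MC38 was Hoxa7 at 0.84 ± 0.11, with all 8 tumours between 6.41 and 6.92. In PAN02, Hoxb13, the most posterior member of the B cluster, was called higher without tumour 6, at 1.04. It read 4.75, 7.29, 4.84 and 4.55 in the 4 tumours, so that value rests on tumour 3. The acinar gene mean was 9.79 in tumour 3 and 11.9 in tumour 4, which read 4.84. Its part in the value was not tested.

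**Figure D3:**
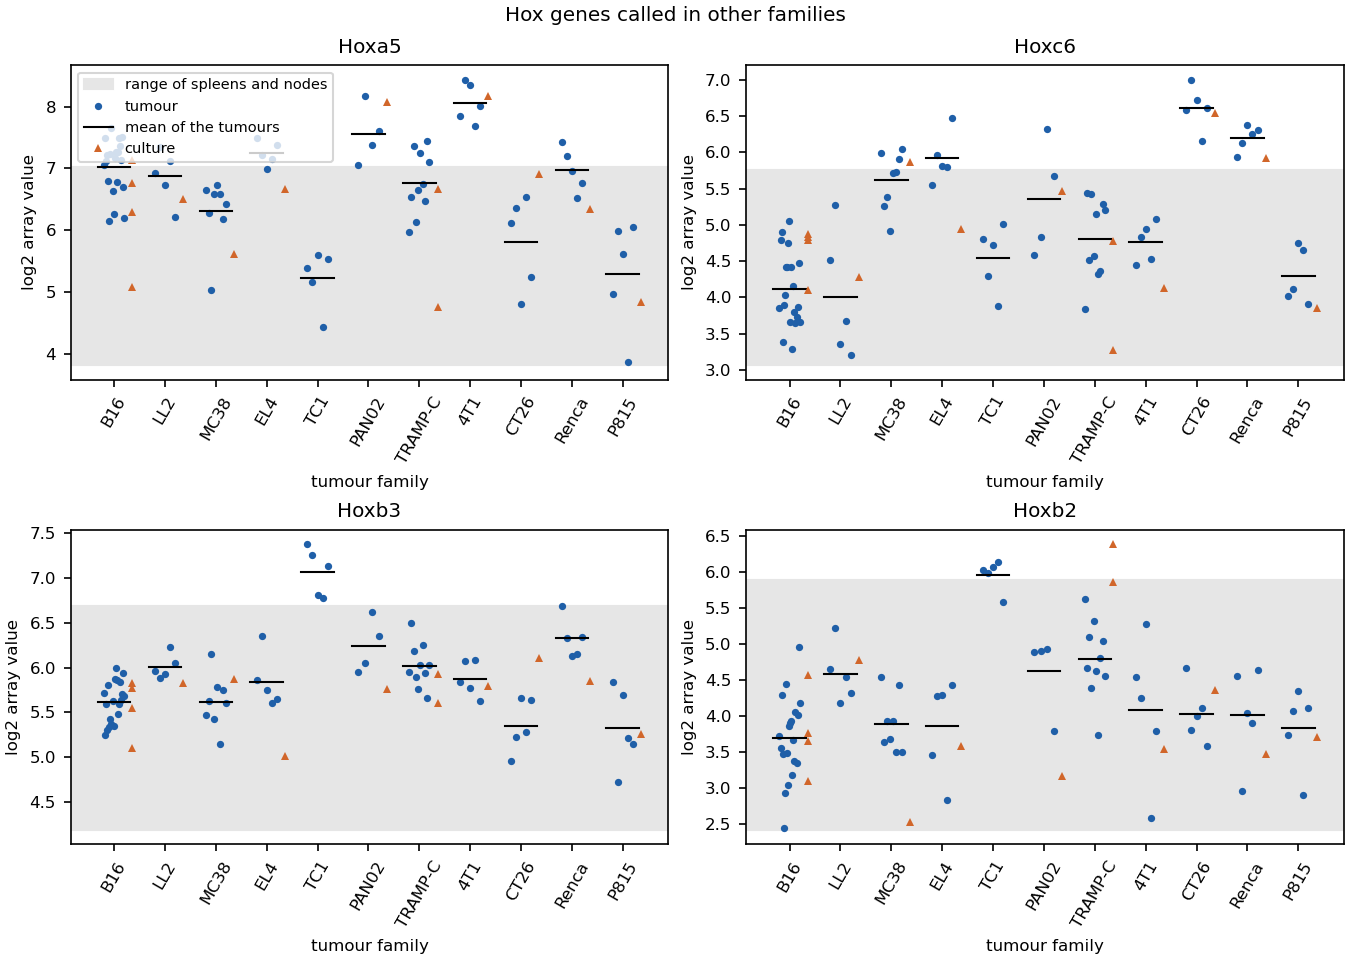
Hoxa5, Hoxc6, Hoxb3 and Hoxb2 in each tumour by family (points, log2 intensity), with the family mean (black line), the cultures (orange triangles) and the range of spleens and nodes that match their label (grey band). For Hoxa5, 4T1 tumours lie at 7.69 to 8.44 while P815 and TC1 tumours lie at or below 6.04, and for Hoxb3 the 5 TC1 tumours lie above every other tumour.

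Related tumours were compared in pairs within the same fit, since stocks of 1 line share their origin and lines of 1 organ share a label. Between the 2 sources of B16F0, 1 Hox gene was called (0.477% of all genes in either direction). Hoxd13, the most posterior member of the D cluster, read 5.46, 4.33, 5.64, 5.27 and 6.17 in B16F0 tumours from ATCC and 4.31, 4.56, 4.50, 4.63 and 3.85 in those from ECACC. One ATCC tumour lay among the ECACC ones, and the difference, -1.0 ± 0.25 (ECACC minus ATCC, adjusted p = 0.0229), stood at the fold limit. It was lost without any 1 of 5 tumours, namely ATCC tumours 7, 10 and 12 and ECACC tumours 1 and 6, reaching -0.80.

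No Hox gene was called between the 2 sources of B16F10 (0.117% of all genes), where 3 had an unadjusted p under 0.05 by limma. None was called between B16F10 and B16F0 (0.0587%), with 5 such genes. None was called between TRAMPC2 and TRAMPC1 (0%), with 1 such gene. These misses do not show equal levels.

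Lines that share an organ label were compared next. Between CT26 and MC38, both labelled colon, 2 Hox genes were called (5.7% of all genes), both lower in CT26. Hoxa7 read 5.85, 5.09, 4.76, 4.96 and 5.50 in CT26 tumours, all below the lowest MC38 tumour at 6.41 (difference -1.36 ± 0.16, adjusted p = 1.13e-10). Hoxd10 read 5.09 to 6.04 in CT26 and 6.53 to 7.04 in MC38 tumours, with no overlap (difference -1.13 ± 0.21). This call came down just under the fold limit, at -1.0, without CT26 tumour 25, whose keratinocyte gene mean was 8.15, and at -0.99 after quantile normalisation. Hoxc6 went the other way, higher in CT26 by 0.996 (adjusted p = 0.0038 by limma). It fell just short of the fold limit and passed it without 1 of several single tumours. Hoxb4 was called lower in CT26 without MC38 tumour 12 (-1.11) or CT26 tumour 27 (-1.0), and Hoxc9 without MC38 tumour 58 (-1.02). CT26 grew in BALB/c and MC38 in C57BL/6J mice, so host strain and line cannot be told apart here.

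TC1 and LL2, both labelled lung and grown in the same strain, differed by 4 Hox genes (5.14% of all genes). Hoxb2 was higher in TC1 by 1.38 ± 0.34 and Hoxb3 by 1.06 ± 0.17. Hoxa5 differed by -1.65 ± 0.31 and Hoxb7 by -1.04 ± 0.31 (TC1 minus LL2), both lower in TC1. The adjusted p values ran from 8.02e-07 for Hoxb3 to 0.0117 for Hoxb7. Hoxb7 fell under the limit, to -0.96, without LL2 tumour 14, TC1 tumour 20 or TC1 tumour 24, and Hoxb3, at 0.98, without TC1 tumour 19.

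The cultures give the level of each line outside the mouse. With 1 culture a line there is no test of a culture on its own, and ranks among the 16 cultures are given. In Renca culture Hoxc10 read 5.72, Hoxd10 8.17, Hoxb7 6.69 and Hoxb8 6.09, each the highest of the 16. Hoxc6 read 5.93 in Renca culture, below only CT26 culture, and Hoxb4 read 3.40, above only the B16F0 culture from ATCC. Hoxa11 ranked 5 in Renca culture at 6.27, behind EL4 culture at 7.09 and the TRAMPC1 and TRAMPC2 cultures at 6.78 and 6.42. The highest Hoxa11 of all, at 7.13, was in the B16F10 culture from NCI, whose tumours read 4.75 to 6.24 and had no such call. Hoxc8, the scattered call, read 3.99 in Renca culture and ranked 11. In EL4 culture Hoxc9 read 5.48 and ranked 2, level with 4 of the EL4 tumours and below tumour 18. Hoxb7 ranked 2 and 3 in the TRAMPC1 and TRAMPC2 cultures, at 6.20 and 6.03. Among the genes called lower in tumours, P815 culture ranked 14 for Hoxa5, while LL2 culture ranked 11 for Hoxc6. The B16 cultures ranked 7, 8, 9 and 14 for Hoxc6 and 8, 10, 12 and 16 for Hoxb4, so most of them lay mid-range in culture.

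Likeness was then taken across the 32 genes at once, with each gene centred within tumours and within cultures. Of the 72 tumours with a culture of their family, 52 correlated best with a culture of their own family and 36 with that of their own line. The median correlation with cultures of their own family was 0.265 and with cultures of other families -0.044. Over all 15224 genes all 72 tumours matched their family and 59 their line, with medians of 0.450 and -0.097. The sets differ widely in size, so these totals are not like for like. B16 and TRAMP-C tumours could also match any of several cultures of their family, and the other families had a single culture. All 5 Renca, all 5 LL2 and all 10 TRAMP-C tumours matched their family by Hox genes, as did 15 of 20 B16 and 4 of 5 P815 tumours. The share was 5 of 8 in MC38, 3 of 5 in 4T1 and in CT26, 2 of 5 in EL4 and 0 of 4 in PAN02 tumours. With Spearman's correlation the total was 45.

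Taken gene by gene, family means in tumours and in culture correlated over the 10 families with both, with a median Pearson correlation of 0.625 over the Hox genes and 0.493 over all genes. It was above 0.7 for 15 of 32 Hox genes and for 3903 of 13755 genes. Hoxa11 at 0.92 and Hoxd10 at 0.91 were highest, and Hoxd1 at -0.43 and Hoxb1 at -0.36, both anterior genes, were lowest. These are descriptions over 10 points that share each array's scale.

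Whether growth in the mouse altered Hox levels was tested over the 10 families, each as the mean of its tumours minus its culture. No Hox gene passed both limits, either higher (2.06% of all genes) or lower (11.4%). The median difference was 0.006 over the 32 Hox genes, all tested, and -0.266 over all genes. By limma's adjusted p alone, 2 Hox genes were higher (7.28% of all genes) and 2 lower (45%), each by less than the fold limit. This split depended on the scale: it was 4 higher and 2 lower with array medians subtracted (13.9% and 35.6% of all genes), and 7 higher and 2 lower after quantile normalisation (16.8% and 20.6%). Hoxa7 was lower in tumours in 10 of 10 families, with a mean difference of -0.91 ± 0.12 (adjusted p = 2.49e-05). In 4T1 it read 7.12 in culture and 4.84 to 5.97 in tumours. Hoxd11, which acts with Hoxa11 in kidney and forearm, was also lower in 10 of 10 families (-0.77 ± 0.11, adjusted p = 3.82e-05). Relative to the median of all genes these differences were -0.64 and -0.50. With each array's median subtracted they were -0.75 and -0.61, and after quantile normalisation -0.43 and -0.50.

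Hoxb4 went the other way in 7 of 10 families, with a mean of 0.84 ± 0.30 (adjusted p = 0.0316), or 1.11 relative to the median of all genes. Renca culture read 3.40 and Renca tumours 6.48, 6.85, 6.38, 6.73 and 6.86, so the Hoxb4 call in Renca tumours had no counterpart in the culture. MC38 culture read 3.61, and MC38 tumours 4.14 to 6.49 with a median of 5.67. In B16F0 from ECACC all 5 tumours, at 3.85 to 4.32, lay below the culture at 4.73. Hoxa2, an anterior gene of the A cluster that acts in the hindbrain, was higher in tumours in 8 of 10 families by 0.38 ± 0.14 (adjusted p = 0.0365). The fibroblast and matrix gene mean was 4.34 in Renca culture and 6.13 to 7.63 in Renca tumours, and 5.12 and 6.41 to 7.41 for MC38. Its part in these differences was not tested.

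**Figure D4:**
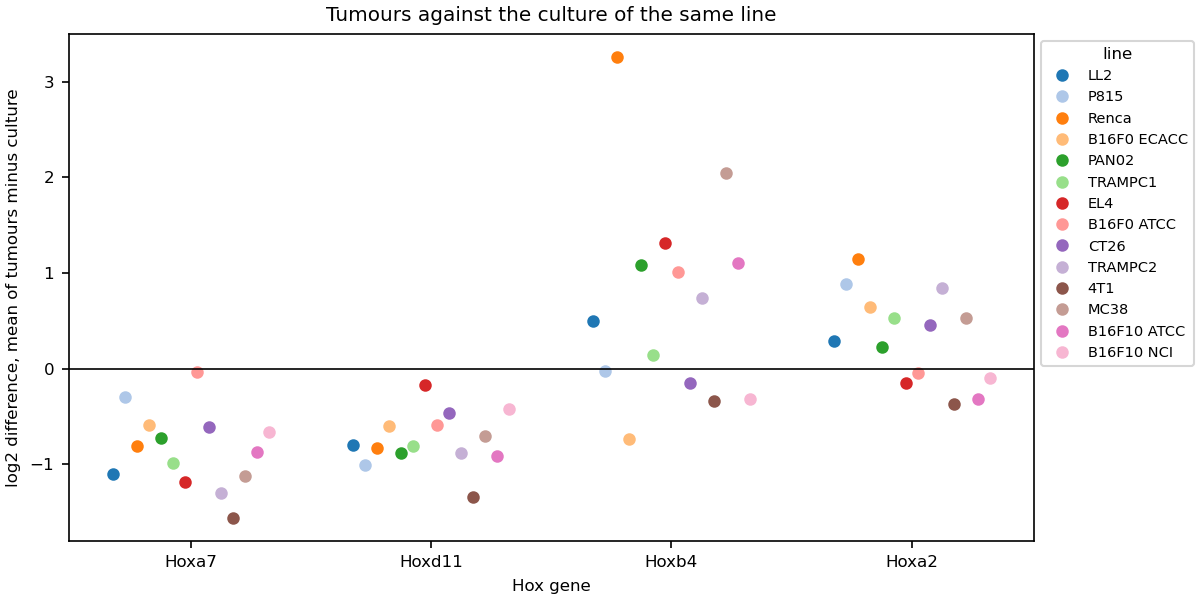
Mean of the tumours minus the culture for Hoxa7, Hoxd11, Hoxb4 and Hoxa2 in each of the 14 lines with both (log2 difference, points by line). Hoxa7 and Hoxd11 lie below 0 in the mean of every family, while Hoxb4 spreads on both sides, up to 3.26 in Renca.

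Spleens and nodes served as reference organs. Against all 190 of them, 1 of 32 Hox genes, Hoxb3 in TC1, had every tumour of a family above the highest organ (8.51% of all genes). Without the arrays that went against their labels, several of which held tumour-like profiles, 7 genes did (19.3% of all genes). They were Hoxa5 in PAN02 and 4T1, Hoxa11 in EL4 and Renca, Hoxb3 in TC1, Hoxb5 and Hoxb7 in TRAMP-C, Hoxc6 in CT26 and Renca, and Hoxd10 in Renca. The Hox count, 7 of 32, is near that background.

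In culture, a gene was counted where a line read at least 1 above the highest organ. This held for 3 Hox genes against all organs (16.2% of all genes), which were Hoxa7 in MC38, Hoxd9 in Renca and Hoxd13 in B16F10 from NCI. Without the arrays against their labels it held for 8 (26.1%), adding Hoxa5, Hoxa9, Hoxa11, Hoxb7 and Hoxd10. Hoxa5 was above in PAN02 and 4T1, Hoxa9 in Renca and B16F10 from NCI, Hoxa11 in TRAMPC1, EL4 and B16F10 from NCI, and Hoxb7 and Hoxd10 in Renca. No Hox gene was above the organs in Hepa1-6 or ID8. The same held for the LL2, P815, CT26, TRAMPC2 and both B16F0 cultures and for B16F10 from ATCC. With each array's median subtracted or after quantile normalisation, neither count held a single gene against all organs, so these counts depend on the scale.

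The organs themselves differed in a small part of the set. In tumour-free mice 1 Hox gene was called higher in nodes than in spleens (0.636% of all genes) and none lower (0.737%). Hoxc6 was higher in nodes by 1.01 ± 0.15 (adjusted p = 1.27e-05) and in 18 of 20 mice. The call stood at the fold limit: it was lost after quantile normalisation, at 0.97, and without any 1 of 19 single arrays, reaching 0.96. Without the arrays that went against their labels 2 genes were called higher (0.845%) and none lower (1.33%). Hoxc6 then read 4.39 to 5.75 in nodes, with a median of 5.27, and 3.06 to 4.68 in spleens, with a median of 3.83. The ranges overlapped slightly, and nodes were higher in 13 of 14 mice with both organs (1.30 ± 0.11, adjusted p = 4.54e-11).

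Hoxa5 read 4.61 to 7.03 in those nodes and 4.05 to 5.11 in spleens (1.20 ± 0.17, adjusted p = 1.60e-06), also higher in 13 of 14 mice. By adjusted p alone, 8 Hox genes in all were higher in nodes (8.97% of all genes) and none lower (11.1%). Beside Hoxc6 and Hoxa5 these were Hoxd9 by 0.81, Hoxb7 by 0.68, Hoxc10 by 0.60, Hoxc8 by 0.49, Hoxa7 by 0.35 and Hoxd10 by 0.22. With the animal as a block, Hoxd10 missed the limit of limma's test (adjusted p = 0.056). Of the 8 genes called in Renca tumours, 5 were among these 8 (Hoxc6, Hoxb7, Hoxc10, Hoxc8 and Hoxd10), and Hoxa11, Hoxb4 and Hoxb8 were not. The same overlap over all genes called higher in Renca tumours was not taken, so this count has no background beside it.

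**Figure D5:**
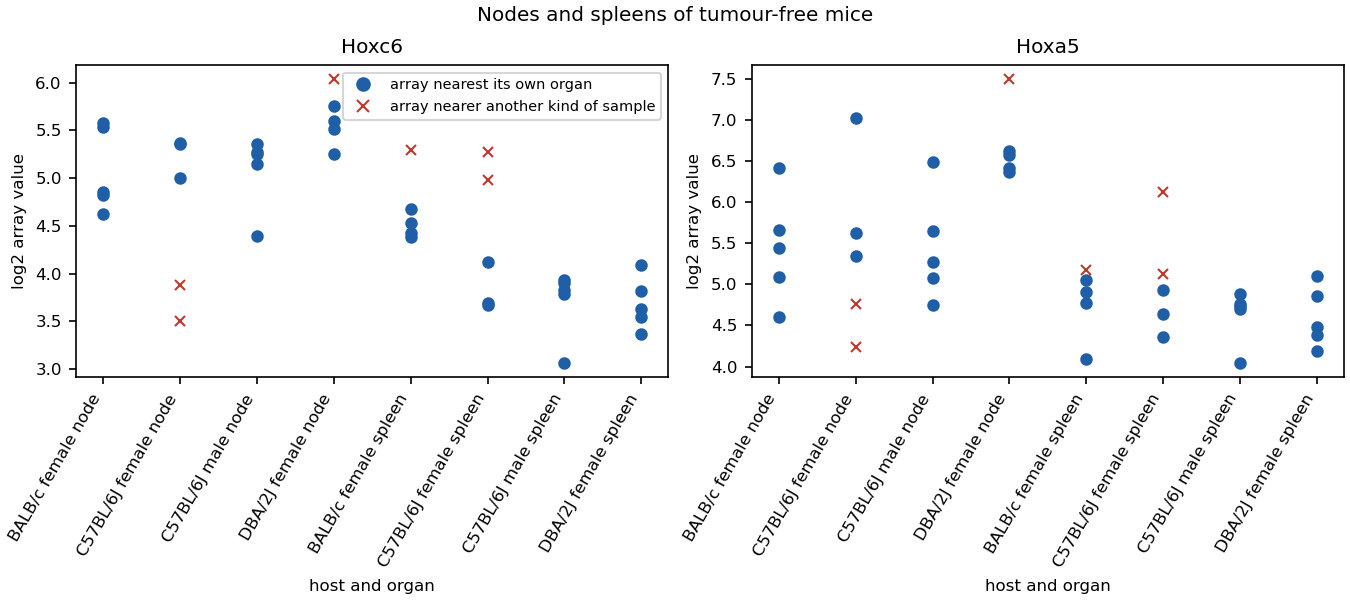
Hoxc6 and Hoxa5 in the nodes and spleens of tumour-free mice by host (log2 intensity, 1 point an array), with arrays that went against their labels as red crosses. Nodes that match their label lie at 4.39 to 5.75 for Hoxc6 and the matching spleens at 3.06 to 4.68.

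Tumour growth elsewhere in the mouse left no called Hox difference in either organ. In spleens of tumour-bearing against tumour-free mice of the same strain and sex, limma called 0 of 29 tested Hox genes (0.233% of all genes), with 3 at an unadjusted p under 0.05. Without the arrays against their labels it called 0 (0.0226%), with 1. In nodes it called 0 of 31 (0.458%), with 4 at an unadjusted p under 0.05, and 0 without those arrays (0.668%), with 8. By limma's adjusted p alone, and under the fold limit, 3 Hox genes were lower in spleens with all arrays (5.26% of all genes in either direction), Hoxc6 by -0.45, Hoxb5 by -0.30 and Hoxd9 by -0.30. Without those arrays there were 0 (0.0906%). In nodes the 1 such gene was Hoxd9 with all arrays (difference 0.26, 16.3% of all genes), and Hoxa7 without those arrays (22%). Hoxa7 in nodes differed by -0.16 with all arrays (adjusted p = 0.36) and by -0.43 without those that went against their labels (adjusted p = 0.0031).

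Neighbouring Hox genes tended to share their family pattern. Over the 11 family means of tumours, the median correlation was 0.533 between the 28 pairs of members next to each other in a cluster, in the order of their annotated starts, which puts Hoxb4 between Hoxb3 and Hoxb2. It was 0.272 between 88 pairs of the same cluster that were not adjacent, and 0.118 between 380 pairs of different clusters. The 27 pairs with the same number in different clusters had a median of 0.332, and 15175 pairs of adjacent genes across the genome had 0.167. Closest were Hoxc6 with Hoxc5 and Hoxb6 with Hoxb5, both at 0.83, although Hoxc5 was the member whose values in tumours were too low to be tested, then Hoxc9 with Hoxc8 at 0.80. Hoxd11 with Hoxd10 reached 0.79, where annotated spans overlap. Hoxc12 and Hoxc10 lay lowest among neighbours, at -0.68. The correlations are descriptions over 11 points.

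Genes that work with or on the Hox clusters were read from the same contrasts, and their counts by the F test stand beside the 53.1% of all genes that differed among models. Their family calls are out of 11 gene and family pairs for each gene tested. These calls stand beside 2.72% higher and 2.02% lower over all genes and families. Of 7 tested cofactors, 3 differed among models by the F test, with 6 calls higher and 6 lower over the families. Meis2, whose protein binds DNA with Hox proteins, was higher in TRAMP-C by 2.28, in B16 by 1.62 and in PAN02 by 1.56, and lower in EL4 (difference -2.06) and Renca tumours (-1.88). Meis1 was higher in PAN02 by 2.57 and in LL2 by 1.57, with differences of -1.83 in CT26, -1.48 in Renca and -1.28 in EL4. In Renca tumours, with the most Hox calls, Meis2 read 4.32 to 4.68 against a median of 6.76 elsewhere. Pbx3 was higher in TC1 tumours, at 7.03 to 7.21 against at most 6.36 in any other tumour (1.51 ± 0.14, adjusted p = 6.89e-14). It was lower in EL4 tumours (difference -1.16).

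Of 15 Polycomb genes 11 differed among models, with 2 calls higher and 3 lower, and of 8 Trithorax and MLL complex genes 5 differed, with 1 higher and 1 lower. Rnf2, a ubiquitin ligase of Polycomb complex, was higher in TC1 by 1.40 and LL2 by 1.23 and lower in PAN02 (difference -1.28). Ezh2, the histone methyltransferase of the other Polycomb complex, was lower in PAN02 (difference -1.17) and Pcgf2 in EL4 (-1.20). The acinar gene mean was 9.79 and 11.9 in 2 of the 4 PAN02 tumours. Without tumours with skin or acinar markers, Rnf2 (-0.82), Ezh2 (-0.86) and Ash2l (-0.95) fell under the fold limit in PAN02, as did Lnpk of the cluster ends (-0.83), while Meis1 (2.92), Meis2 (2.17) and Aldh1a2 (1.89) were still called. Kdm6a, a histone demethylase that opposes Polycomb, was higher in TC1 by 1.12, and Ash2l, a core subunit of MLL complexes, was lower in PAN02 (-1.22). Renca tumours had no call in either list.

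Of 9 inducers and ParaHox genes 3 differed among models, and the 1 family call was Aldh1a2, which makes retinoic acid, higher in PAN02 by 1.81. Of 14 genes at the ends of the clusters 8 differed, with Tax1bp1 higher in P815 by 1.11 and Lnpk lower in PAN02 (-1.04). Of 19 positional homeobox and T-box genes outside the clusters 11 differed, with 9 calls higher and 5 lower. Pax8, a kidney and thyroid lineage factor, read 6.41 to 7.12 in Renca tumours and at most 5.24 in any other tumour (1.96 ± 0.13, adjusted p = 1.97e-21). Prrx1, a limb and face mesenchyme factor, was higher in TC1 by 2.43, in CT26 by 2.15 and in LL2 by 2.08. All 5 lower calls of this list were Prrx1, in B16 (-2.41), 4T1 (-1.11), P815 (-1.11), Renca (-1.08) and EL4 (-1.05). Tbx5, of heart, lung and forelimb, was higher in TC1 by 1.29, and Tbx4, of lung and hindlimb, was higher in B16 by 1.81 and in TC1 by 1.01. Alx1, of the face, was higher in B16 by 2.15 and in MC38 by 1.45.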

How the data were processed

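The authors deposited log2 intensities from an Affymetrix mouse exon array, made with RMA per the submitters' processing notes, for 17831 probe sets on 283 arrays; RNA was amplified before labelling, per the labels' protocols. No RMA version is given in the sources used. Probe sets were named from the platform annotation, where 15620 name 1 gene, 1370 several and 841 none; 15559 matched RefSeq by gene ID. Where a gene had several probe sets, in 375 genes, the one with the highest mean was kept. The members and all gene lists were chosen with earlier results of these data known.

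Values were tested without further scaling in limma 3.58.1 (R 4.3.3), with Benjamini-Hochberg adjustment over all genes tested and a call at adjusted p under 0.05 and a log2 difference of at least 1. A gene was tested if at least 4 of the arrays compared exceeded 4.3653 (percentile 25 of the values). Tumours entered 1 fit. Tumour and culture were compared over 10 family differences. Nodes and spleens of tumour-free mice come from the same animals by their labelled numbers; over the 20 pairs the median correlation of their deviations was 0.002, and the fit with the animal as a block is an alternative. Other alternatives were scaling, filters, leaving out each replicate and, chosen after seeing the data, leaving out arrays that went against their labels and tumours with skin or acinar markers. The fits were tested on simulated data. Named by rule were called Hox genes (per family the 4 highest and 2 lowest, per pair of models 3 each way) and at most 3 called genes each way from each list. The number of arrays limits precision. Identical arrays numbered 0. Where the labels do not say that cultures or tumours were separate experiments, p-values measure only the spread between these samples.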

Additional observations from a re-analysis of the deposited data

Results flagged for a closer look

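In 41 groups of 4 to 10 samples checked for a single distant value, where chance gives about 1 in 20, 7 groups had one. Hoxb2 in TC1 tumours was low in animal 24, at 5.59 against 5.98 to 6.14 in the others. Hoxc6 in B16F0 tumours from ECACC was high in animal 4, at 4.47 against 3.65 to 3.86. Hoxc9 in EL4 tumours was high in animal 18, at 7.29 against 5.18 to 5.49, and the EL4 call for this gene rested on it. In tumour-free C57BL/6J males, Hoxc6 was low in the node of animal 1, at 4.39 against 5.15 to 5.36, and in the spleen of animal 2, at 3.06 against 3.79 to 3.93. Hoxa5 was low in the spleen of animal 4 of that group, at 4.05 against 4.71 to 4.89. Hoxa5 was high in the node of tumour-free DBA/2J animal 5, at 7.49 against 6.36 to 6.62. That array was the one most like PAN02 tumours, with a B cell gene mean of 4.34 and a fibroblast and matrix gene mean of 7.72.

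Hoxb4 moved in opposite directions between tumours and culture in different lines. All 5 Renca tumours lay above their culture, by 3.26 on average, and all 5 tumours of B16F0 from ECACC lay below theirs, by -0.73. The difference between these lines was not tested.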

How the results depend on the processing

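Leaving out 1 replicate at a time gave 18 to 20 Hox genes that differed among models, 16 to 17 family calls higher and 4 to 7 lower; Renca had 8 calls each time. The lower calls numbered 6 with array medians subtracted, 4 after quantile normalisation and 7 without tumours with skin or acinar markers. The B16F0 pair had 0 calls after quantile normalisation, 0 with only the groups compared in the fit, and 0 to 1 leaving out 1 tumour. CT26 against MC38 had 2 to 4 calls and TC1 against LL2 3 to 4 leaving out 1 tumour. Hox genes higher in nodes than spleens numbered 0 after quantile normalisation, 2 without the arrays against their labels, and 0 to 2 leaving out 1 array; with the animal as a replicate block Hoxc6 gave 1.01, as in the fit without it, and no call changed. Genes above the reference organs in a tumour family numbered 7 without the arrays against their labels, 0 under either scaling of the arrays, and 4 with both changes for median subtraction and 4 for quantile normalisation. In a culture these numbers were 8, 0 under median subtraction, 0 under quantile normalisation, 2 with both changes for median subtraction and 0 for quantile normalisation. Tumours and cultures gave 0 calls under every filter, scaling and choice of families tried, and organs of tumour-bearing mice under every alternative run. Of 225 settings over 25 named gene differences, 211 kept direction and call, 14 lost the call (7 differences) and 0 changed direction. Leaving out 1 replicate entered here as only 2 settings for each difference, its lowest and highest value. The 14 therefore do not number every single refit that lost a call, and these were more. The causes were not tested. Signal near background limits the lowest members: 1 of 32 was not tested among tumours.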
